A study of Mus musculus with 6 samples.

Results

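The genes of the DNA replication machinery were followed in the retinal pigment epithelium (RPE), the cell layer behind the photoreceptors, after damaging light. The set held 36 genes, chosen by their textbook roles at the replication fork, out of 18193 genes tested. The choice was made with earlier results of these data known. Of the 36 genes 35 were measured, and Chaf1a, a histone chaperone subunit, had no probe set with exactly 1 gene symbol. Each gene was represented by its probe set with the highest mean over all arrays. All mice were BALB/c, an albino strain, and had been kept in the dark for 1 week. Dark-adapted controls had no further treatment in the labels, whereas light-damaged mice had 1.5 h of exposure to white fluorescent light at 6000 lux, with RPE taken 24 h later. Each group had 3 arrays, numbered as replicates 1 to 3, and values are log2 expression values of the authors' RMA normalization. The labels do not say whether a replicate was 1 animal or a pool, nor give the animals' age. Arrays were paired by replicate number, so the p-values cover the spread of the difference from pair to pair. The p-values of the fit without pairs cover the spread from sample to sample. The source of either spread may be technical.

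Replication begins when origins are licensed in G1: CDC6 and CDT1 load the MCM2-7 ring onto DNA, and CDC45 and GINS later join it to make the active helicase. Behind it, primase and the polymerases copy the strands, the PCNA clamp and its RFC loader hold them on the template, and FEN1 and LIG1 join the lagging strand. Ribonucleotide reductase, thymidylate synthase and thymidine kinase supply the nucleotides, and CAF-1, UHRF1 and DNMT1 restore chromatin and DNA methylation on the new strands. Most of these genes are textbook targets of the E2F transcription factors, which cyclin E with its kinase helps to release at the end of G1. The mature RPE is a layer of cells that do not normally divide.

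The promoters of the 5 members with the largest differences, Mcm5, Uhrf1, Rrm2, Cdt1 and Mcm6, and of Mcm3 and Mcm7, further subunits of the MCM ring, are shown here for the E2F word, a short sequence that E2F factors bind. Mcm2, a ring subunit that also has an entry, held no E2F word and is not shown. The sequences are RefSeq's on GRCm38.p6, from 250 bases before to 50 after a gene's start, 5′ to 3′ on the gene's strand, with each E2F word in capitals. The 4 words searched on both strands were TTTGGCGC, TTTCCCGC, TTTCGCGC and TTTGCCGC, and neighbouring matches can overlap.
Mcm5, chr8:75109259-75109558, plus strand: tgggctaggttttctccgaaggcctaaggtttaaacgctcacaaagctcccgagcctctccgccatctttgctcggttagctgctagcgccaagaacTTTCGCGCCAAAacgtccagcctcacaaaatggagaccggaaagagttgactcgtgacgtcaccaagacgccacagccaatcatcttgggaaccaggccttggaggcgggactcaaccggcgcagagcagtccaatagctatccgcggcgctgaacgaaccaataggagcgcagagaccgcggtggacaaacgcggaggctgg
Mcm3, chr1:20820263-20820562, minus strand: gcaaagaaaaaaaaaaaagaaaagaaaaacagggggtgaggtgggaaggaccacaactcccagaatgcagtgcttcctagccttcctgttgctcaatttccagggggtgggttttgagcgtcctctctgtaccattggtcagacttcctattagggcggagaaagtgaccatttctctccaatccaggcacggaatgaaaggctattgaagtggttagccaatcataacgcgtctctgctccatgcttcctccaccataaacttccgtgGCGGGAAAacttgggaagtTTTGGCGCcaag
Mcm6, chr1:128359656-128359955, minus strand: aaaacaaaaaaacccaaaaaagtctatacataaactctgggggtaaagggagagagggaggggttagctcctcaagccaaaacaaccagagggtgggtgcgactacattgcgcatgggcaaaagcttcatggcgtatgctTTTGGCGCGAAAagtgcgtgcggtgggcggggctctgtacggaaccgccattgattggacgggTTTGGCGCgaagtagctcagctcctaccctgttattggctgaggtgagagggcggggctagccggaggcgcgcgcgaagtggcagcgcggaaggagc
Mcm7, chr5:138171834-138172133, minus strand: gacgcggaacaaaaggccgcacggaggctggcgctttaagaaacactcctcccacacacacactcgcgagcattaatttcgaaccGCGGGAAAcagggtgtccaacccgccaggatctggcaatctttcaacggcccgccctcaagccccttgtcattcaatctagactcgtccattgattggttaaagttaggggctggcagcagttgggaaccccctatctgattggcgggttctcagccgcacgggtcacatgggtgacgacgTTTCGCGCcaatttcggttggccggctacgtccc
Cdt1, chr8:122567765-122568064, plus strand: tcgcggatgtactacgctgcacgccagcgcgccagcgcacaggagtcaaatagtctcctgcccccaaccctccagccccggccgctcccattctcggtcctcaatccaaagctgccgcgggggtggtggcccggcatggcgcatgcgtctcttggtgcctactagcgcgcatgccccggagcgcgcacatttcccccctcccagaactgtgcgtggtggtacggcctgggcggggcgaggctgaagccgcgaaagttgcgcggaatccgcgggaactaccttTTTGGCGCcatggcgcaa
Uhrf1, chr17:56304063-56304362, plus strand: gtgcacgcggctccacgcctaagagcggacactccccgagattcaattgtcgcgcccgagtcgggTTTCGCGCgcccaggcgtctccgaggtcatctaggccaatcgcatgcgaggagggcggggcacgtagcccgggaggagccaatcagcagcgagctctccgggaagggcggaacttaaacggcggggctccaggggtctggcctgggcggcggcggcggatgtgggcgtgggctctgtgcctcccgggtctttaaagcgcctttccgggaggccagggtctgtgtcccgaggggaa
Rrm2, chr12:24708004-24708303, plus strand: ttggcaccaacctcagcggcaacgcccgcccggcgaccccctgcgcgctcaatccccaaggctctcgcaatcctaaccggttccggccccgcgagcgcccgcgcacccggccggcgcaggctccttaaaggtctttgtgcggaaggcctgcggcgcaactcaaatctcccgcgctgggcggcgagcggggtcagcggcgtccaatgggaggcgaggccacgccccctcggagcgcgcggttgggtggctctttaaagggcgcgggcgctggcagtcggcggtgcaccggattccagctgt

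In Mcm5 the 2 words begin 153 and 149 bases before the start and overlap, as do 2 of the 3 words of Mcm6, whose first bases lie 110 and 106 bases before it. The Cdt1 word begins at base 33 after the start. Rrm2 had none of the 4 words in this window. Uhrf1 and Mcm7 each have 2 starts in the table, and for both the window shown is the one that held an E2F word, while the other held none. Over all members, 30 of 36 had an entry, and 13 of the 30 (43.3%) held an E2F word in at least 1 window, against 2.60% of all 27025 genes in the table and 3.81% of the 14452 of them that were tested on the arrays. Mcm4, Gins1, Gins2, Rfc2, Pole and Ccne2 had no entry. The word was found in 6 of the 9 genes with an entry that rose and in 7 of the 20 that did not pass. The CCAAT word was found in 17 of the 30 (56.7%), against 41.1% of all genes and 42% of those tested on the arrays. The words TTTGAA or TTCGAA, the cell cycle homology region of many mitotic genes, were found in 6 (20.0%). The share was 21.7% of all genes and 17.5% of those tested. These matches describe the letters of the windows only.

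In light-damaged RPE 11 of the 35 measured genes rose and 0 fell. Calls were made in limma with the replicate number as a block, where the adjusted p was under 0.05. That is 31.4% of the members, while over all 18193 genes 3.07% rose and 1.92% fell. Those that rose were 5 subunits of the MCM ring (Mcm2, Mcm3, Mcm4, Mcm5 and Mcm7), the origin factors Cdt1 and Gins1, the polymerase epsilon subunit Pole2, the nucleotide enzymes Rrm2 and Tk1, and Uhrf1. Their rises ran from 0.47 to 1.52 on the log2 scale. Rrm2 counts among the 11 through a probe set that was the brightest only because of its light-damaged values. The other 24 had differences between -0.07 and 0.98, above 0 in 22. At an unadjusted p under 0.05, 23 members were higher and 0 lower, and 9.48% of all genes were higher. The median of the 35 differences was 0.38, against 0.00 over all genes, and it was 0.35, 0.26 and 0.43 in pairs 1, 2 and 3. All 3 pairs were higher after light for 26 members, and for 19.9% of all genes. The groups did not overlap for 19 members, the light-damaged arrays being higher in each, while over all genes 6.61% had such a separation in that direction.

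**Figure D1:**
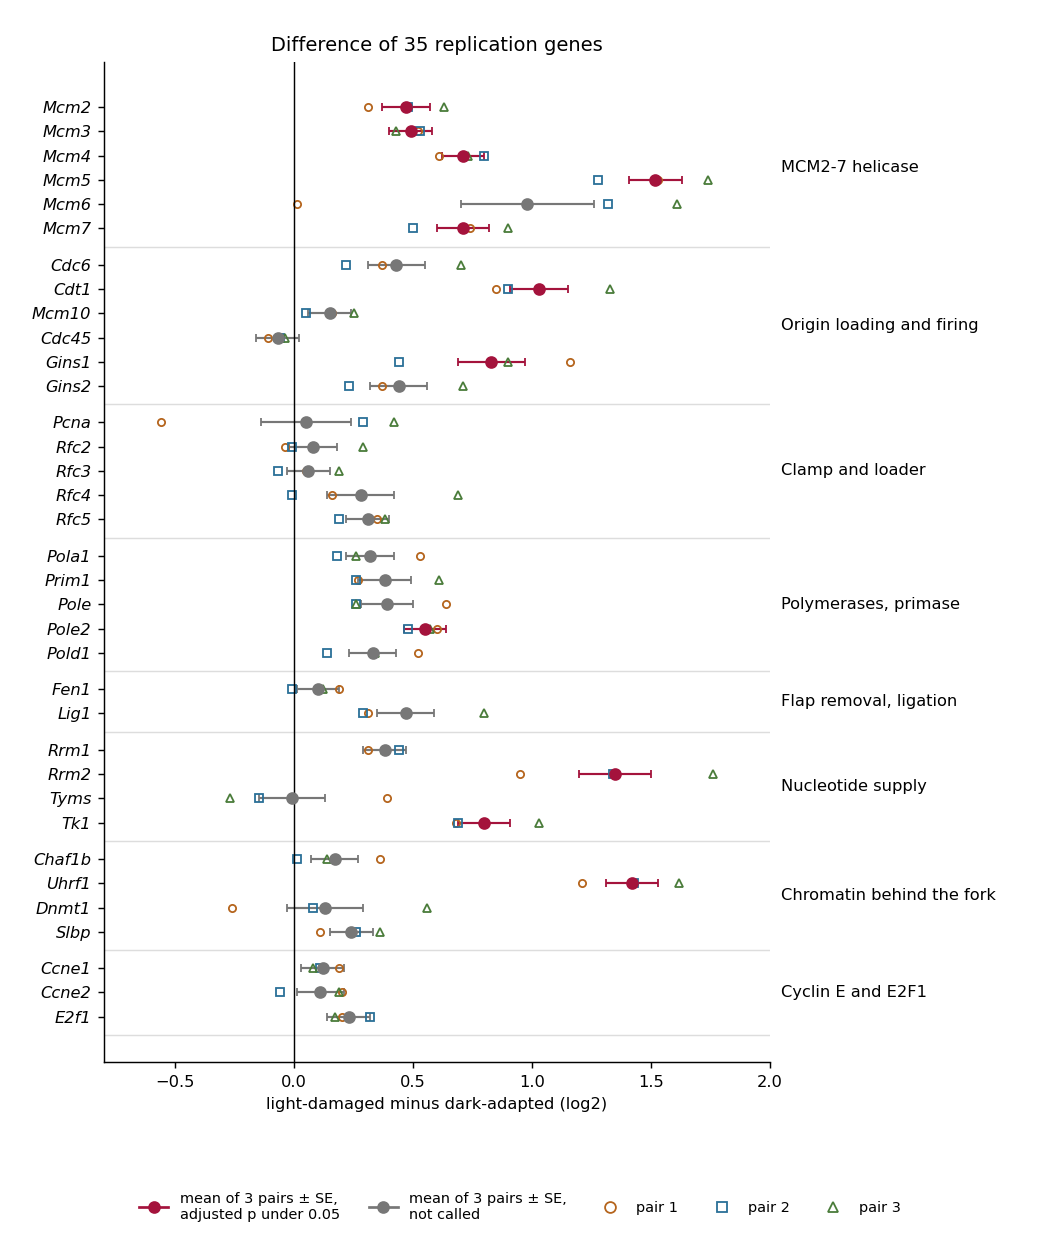
Light-damaged minus dark-adapted difference of the 35 measured genes on the log2 scale (horizontal axis), by role, as the mean of the 3 pairs ± SE (filled points) and in each pair (open symbols). Red points passed the adjusted p of 0.05; 5 of the 6 MCM subunits are red, and none of the 5 clamp and loader genes is.

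These calls rest on pairing the arrays by replicate number. Without the block 0 of the 35 members passed, the smallest adjusted p being 0.122 for Rrm2, and 0.0495% of all genes rose. At an unadjusted p under 0.05 that fit had 17 members higher and none lower, and 3.96% of all genes higher. Both arrays numbered 1 differed from the rest in RNA quality or labelling as read by the Gapdh controls. Their 3′ minus 5′ signal was 2.45 and 2.48, against 1.54 to 1.80 in the other 4 arrays. Leaving out both replicate 1 arrays, 12 members rose without any block, among them all 11 named above, while 3.17% of all genes did. With the block, 13 members rose without pair 1, 9 without pair 2 and 4 without pair 3. The shares of all genes that rose in these fits were 4.55%, 2.15% and 0.879%. Mcm5, Cdt1, Rrm2 and Uhrf1 were the 4 called without pair 3. For Rrm2 the choice of probe set depended on the light-damaged values, and its other probe sets were not called.

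**Figure D2:**
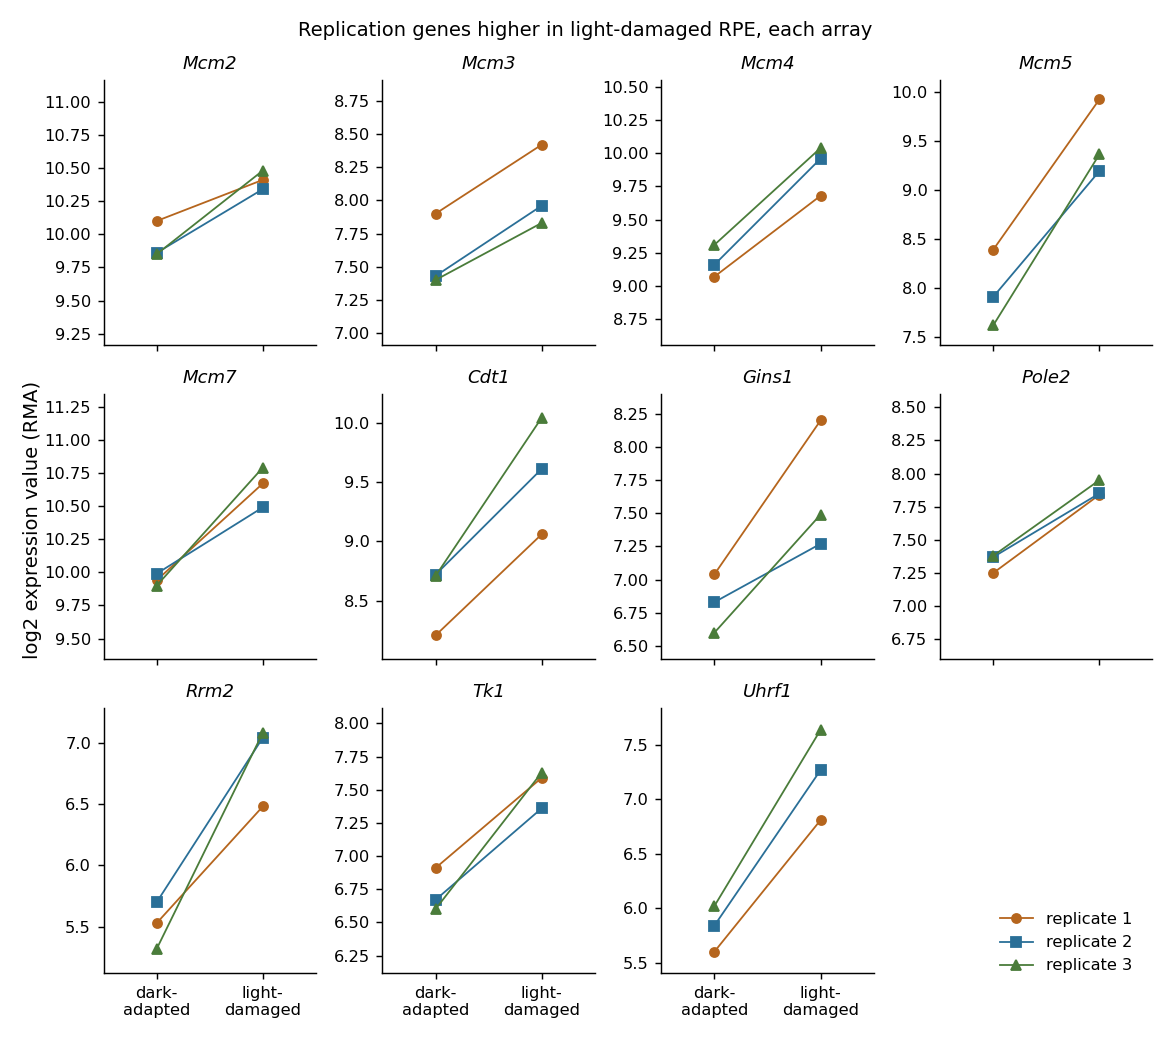
Log2 expression value (vertical axis, range set per panel and at least 2 log2 units) of the 11 genes that rose, in dark-adapted and light-damaged arrays, with a line for each replicate number. Every line goes up, and the groups overlap for Mcm3 alone.

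All 6 subunits of the MCM2-7 helicase, the ring that unwinds the DNA, had a difference of 0.47 or more, with a median of 0.71. Mcm5 changed most. Its values were 8.39, 7.91 and 7.62 in dark-adapted replicates 1, 2 and 3 and 9.92, 9.19 and 9.36 in the light-damaged ones. The lowest light-damaged array lay above the highest dark-adapted one, and the difference was 1.52 ± 0.11 or 2.86-fold (limma adjusted p = 0.00217). Mcm4 went from 9.07, 9.16 and 9.31 to 9.68, 9.96 and 10.04, and Mcm7 from 9.94, 9.99 and 9.90 to 10.67, 10.49 and 10.79. Both were 1.64-fold higher with separate groups, at 0.71 ± 0.09 and 0.71 ± 0.11 and adjusted p-values of 0.0110 and 0.0185. Mcm2 read 10.10, 9.86 and 9.85 in the dark and 10.41, 10.34 and 10.48 after light, also apart. Its difference of 0.47 ± 0.10 was at the edge of the threshold (adjusted p = 0.0499) and lost its call with median centring, with trend and robust settings and with a pseudocount of 16. Mcm3 had 7.90, 7.43 and 7.40 in the dark and 8.42, 7.96 and 7.83 after light. Dark-adapted replicate 1 lay above light-damaged replicate 3, so its groups overlapped, but each pair rose by 0.43 to 0.53 (0.49 ± 0.09, adjusted p = 0.0300). The probe sets of Mcm3, Mcm4 and Mcm5 were of x_at type, which can bind related transcripts, and those of Mcm2 and Mcm7 of s_at type. With both types left out, Mcm5 gave 0.76, Mcm4 0.67 and Mcm2 0.88, all called. Mcm3 then gave 0.36 and Mcm7 0.5, and both lost their calls.

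Mcm6 had the largest difference among members that did not pass. It stood at 7.62, 7.44 and 7.27 in the dark and at 7.63, 8.76 and 8.88 after light. Pairs 2 and 3 were higher by 1.32 and 1.61 and pair 1 by 0.01, so that the difference was 0.98 ± 0.28 (adjusted p = 0.124). Without pair 1 it was 1.46 and passed (adjusted p = 0.0014). A dimmer x_at probe set of Mcm6, of a type that can bind related transcripts, read 5.30, 5.89 and 5.93 in the dark and 7.19, 8.56 and 8.66 after light. All 3 of its pairs were higher, pair 1 the least, and its rise of 2.43 ± 0.17 or 5.37-fold was the largest of any probe set of the members (adjusted p = 0.00205 over all probe sets).

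Of the 6 genes that license and fire origins, 2 rose. Cdt1, which brings the MCM ring to the origin, went from 8.21, 8.72 and 8.71 to 9.06, 9.61 and 10.04. The groups were apart although both replicate 1 arrays were the lowest of their group, and the rise was 1.03 ± 0.12 or 2.04-fold (adjusted p = 0.00852). Its 2 dimmer probe sets gave 0.64 ± 0.11, which passed over all probe sets, and -0.15 ± 0.09, and the mean of its probe sets gave 0.51. Gins1, a subunit of the GINS complex of the active helicase, went from 7.04, 6.83 and 6.60 to 8.20, 7.27 and 7.49. Pair 1 rose most, by 1.16, and the rise was 0.83 ± 0.14 or 1.78-fold (adjusted p = 0.0296), while its other, dimmer probe set gave 0.17 ± 0.08. Gins2, its partner, had 8.18, 7.99 and 7.73 against 8.55, 8.22 and 8.44, with separate groups and a difference of 0.44 ± 0.12 that did not pass (adjusted p = 0.0973). Cdc6, the loader that works with CDT1, had 4.82, 5.10 and 4.95 against 5.18, 5.32 and 5.65, again apart and not past the threshold (0.43 ± 0.12, adjusted p = 0.0997). Mcm10, an initiation factor that is not part of the ring, differed by 0.15 (95% interval -0.07 to 0.37), and Cdc45, the helicase activator, by -0.07 (95% interval -0.27 to 0.14). A dimmer probe set of Cdc45 gave 0.51 ± 0.11 (adjusted p = 0.0629 over all probe sets), so the sign for this gene turns with the probe set.

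None of the 5 genes of the sliding clamp and its loader passed in limma, and 1 of them, Rfc5, was higher at an unadjusted p under 0.05. Pcna, the clamp, read 9.71, 11.88 and 12.07 in the dark and 9.15, 12.17 and 12.49 after light. Both replicate 1 arrays were far lower than the rest, pair 1 was lower after light by 0.56 and pairs 2 and 3 were higher by 0.29 and 0.42. The difference was 0.05 with a 95% interval of -0.40 to 0.50, and its sign turned without pair 2 (-0.07) or pair 3 (-0.13). Without pair 1 it was 0.35 and did not pass in limma (adjusted p = 0.0822). The loader subunits Rfc2, Rfc3, Rfc4 and Rfc5 differed by 0.08, 0.06, 0.28 and 0.31, and the groups overlapped for each. The 95% interval for Rfc4 ran from -0.07 to 0.63 and that for Rfc5 from 0.09 to 0.52 (adjusted p = 0.128).

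Of 5 polymerase and primase genes 1 rose, and all 5 differences lay between 0.32 and 0.55. Pole2, the second subunit of the leading strand polymerase epsilon, went from 7.25, 7.37 and 7.38 to 7.84, 7.85 and 7.95. The spread within each group was small, with SDs of 0.07 and 0.06, and the rise was 0.55 ± 0.09 or 1.46-fold (adjusted p = 0.0225). Pole, its catalytic subunit, had 6.83, 6.91 and 7.17 against 7.48, 7.18 and 7.43. Prim1, the catalytic subunit of primase, had 8.91, 8.96 and 8.79 against 9.18, 9.22 and 9.41. Pola1, the catalytic subunit of the polymerase that extends the primer, had 7.81, 8.27 and 8.33 against 8.35, 8.45 and 8.58. The groups were apart for these 3 genes, narrowly for Pole and Pola1, while their differences of 0.39, 0.38 and 0.32 did not pass (adjusted p = 0.118, 0.108 and 0.152). Pold1, of the lagging strand polymerase delta, differed by 0.33 with overlapping groups (adjusted p = 0.146). Its second probe set gave 0.08.

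Neither gene of lagging strand joining passed, and 1 of the 2 was higher at an unadjusted p under 0.05 in limma. Lig1, the ligase that seals the fragments, had 9.02, 9.25 and 9.06 in the dark and 9.33, 9.54 and 9.86 after light. The groups were apart, with a difference of 0.47 ± 0.12 (adjusted p = 0.0988). Fen1, the flap nuclease, differed by 0.10 with a 95% interval of -0.12 to 0.32.

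Among 4 enzymes of nucleotide supply Rrm2 and Tk1 rose. Rrm2, the small subunit of ribonucleotide reductase whose level rises in S phase, went from 5.53, 5.70 and 5.32 to 6.48, 7.04 and 7.08. The groups did not overlap, and the rise was 1.35 ± 0.15 or 2.55-fold (adjusted p = 0.00818). This came from an x_at probe set, and the 2 other probe sets of Rrm2 gave 0.13 ± 0.09 and 0.22 ± 0.16, neither called. The x_at probe set was the brightest over all 6 arrays through the light-damaged ones, since in the dark one of the others was brighter, at 5.81, 5.81 and 5.73. Its choice thus depended on the rise itself, which was so for no other member. Uhrf1 came close, since its probe sets were about equally bright in the dark. With x_at and s_at probe sets left out the Rrm2 difference was 0.13 and the call was lost. Tk1, the thymidine kinase of S phase cells, had 1 probe set and went from 6.91, 6.67 and 6.60 to 7.59, 7.36 and 7.63. Every light-damaged array was higher, and the rise was 0.80 ± 0.11 or 1.74-fold (adjusted p = 0.0130). Rrm1, the large subunit of the reductase, had 9.19, 9.08 and 9.16 against 9.51, 9.52 and 9.54. The groups were apart and tight, and the difference of 0.38 ± 0.09 missed the threshold (adjusted p = 0.0640). Tyms, the thymidylate synthase, differed by -0.01 with a 95% interval of -0.35 to 0.33, and was among the 7 members whose mean lay under the lower quartile of all genes. The called genes Rrm2 and Uhrf1 were also among these 7. With genes under that quartile (6.93) left out, 9 of the 28 members that remained rose, and 3.91% of all 13645 genes that remained. The filter used the mean over all 6 arrays. Of the 9, Gins1 and Tk1 stayed in through their light-damaged values, since their dark-adapted means were 6.82 and 6.73.

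Of the 4 measured genes that restore chromatin and methylation behind the fork, Uhrf1 rose. This protein recognises hemimethylated DNA and recruits DNMT1 to it. Uhrf1 went from 5.60, 5.84 and 6.02 to 6.81, 7.27 and 7.64. The groups were well apart, with the replicate 1 array the lowest in each, and the rise was 1.42 ± 0.11 or 2.68-fold (adjusted p = 0.00225). Its other probe set, about as bright in the dark at 5.96, 5.64 and 5.82, gave 0.17 ± 0.09 and did not pass. Dnmt1, the maintenance methyltransferase, read 8.68, 9.94 and 9.69 in the dark and 8.42, 10.02 and 10.25 after light. Pair 1 was lower after light and pair 3 higher, and the difference was 0.13 with a 95% interval of -0.25 to 0.50. Its 2 dimmer probe sets, both x_at, each gave 0.51, and 1 of them passed over all probe sets (adjusted p = 0.0448). Slbp, which binds the stem-loop of histone mRNA, differed by 0.24 (adjusted p = 0.223) and Chaf1b, a subunit of the CAF-1 histone chaperone, by 0.17 (adjusted p = 0.441).

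None of the 3 genes that open S phase passed in limma, and 1 was higher at an unadjusted p under 0.05. E2f1, an activating E2F, had 7.98, 7.81 and 7.99 in the dark and 8.18, 8.12 and 8.16 after light. The groups were apart by a narrow margin, the difference was 0.23 ± 0.09 (adjusted p = 0.224), and its 2 other probe sets gave 0.01 and 0.02. The cyclin E genes Ccne1 and Ccne2 differed by 0.12 and 0.11, with 95% intervals of -0.08 to 0.33 and -0.12 to 0.34.

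For 28 of the 35 members there were 45 further probe sets. In a fit over all 34945 probe sets with 1 symbol, 18 of the members' 80 probe sets rose and none fell, while 2.38% of all probe sets rose. These 18 belonged to 14 genes. Mcm6, Gins2 and Dnmt1 rose by a probe set other than the brightest one, and Mcm2 rose by its dimmer probe set (0.88 ± 0.10, adjusted p = 0.00697). Of the 45 further probe sets 8 rose, and 7 had the sign opposite to the brightest one. Of the 10 called genes with other probe sets, Mcm2 and Mcm4 were the 2 for which every other probe set was also higher at an unadjusted p under 0.05. For the other 8 at least 1 was not. The 2 dimmer probe sets of Mcm5, both of at type, gave 0.76 ± 0.09 and 0.08 ± 0.08, so that its rise differed between probe sets. The others of Mcm3 gave 0.15 to 0.83, those of Mcm7 0.19 to 0.65 and that of Pole2 0.08. Of the chosen probe sets 7 were x_at and 3 were s_at.

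**Figure D3:**
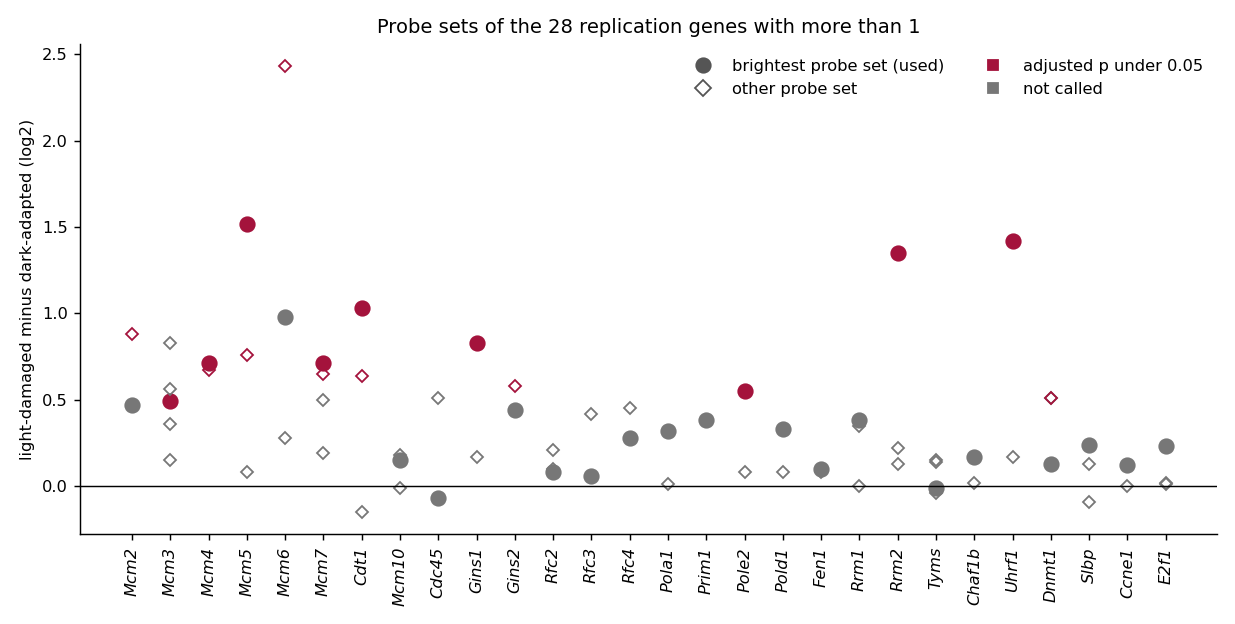
Light-damaged minus dark-adapted difference on the log2 scale (vertical axis) for each probe set of the 28 genes with more than 1, the brightest as a filled circle and the others as open diamonds, in red where the adjusted p over all probe sets was under 0.05. The highest diamond is the Mcm6 x_at probe set at 2.43, and Rrm2 and Uhrf1 each have 1 probe set far above the others.

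Members also differed in how far the replicate 1 arrays stood from the rest. In both groups replicate 1 was lower than the mean of the other 2 arrays by 0.5 or more for Pcna (by -2.27 in the dark and -3.18 after light), Dnmt1 (-1.14 and -1.71), Slbp (-1.11 and -1.31), Rfc4 (-0.84 and -1.02) and Cdt1 (-0.50 and -0.77). That is 5 of 35 members, against 15.0% of all genes. It was higher by as much in both groups for Mcm5 alone (0.63 and 0.64). For Pcna, Dnmt1, Slbp and Rfc4 this gap was larger than any difference between light and dark. Without pair 1 their differences were 0.35, 0.32, 0.31 and 0.34, and none was called. The part of the gap in their results was not tested. Mcm6 differed in another way, since replicate 1 was lower after light (-1.19) and not in the dark (0.27).

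**Figure D4:**
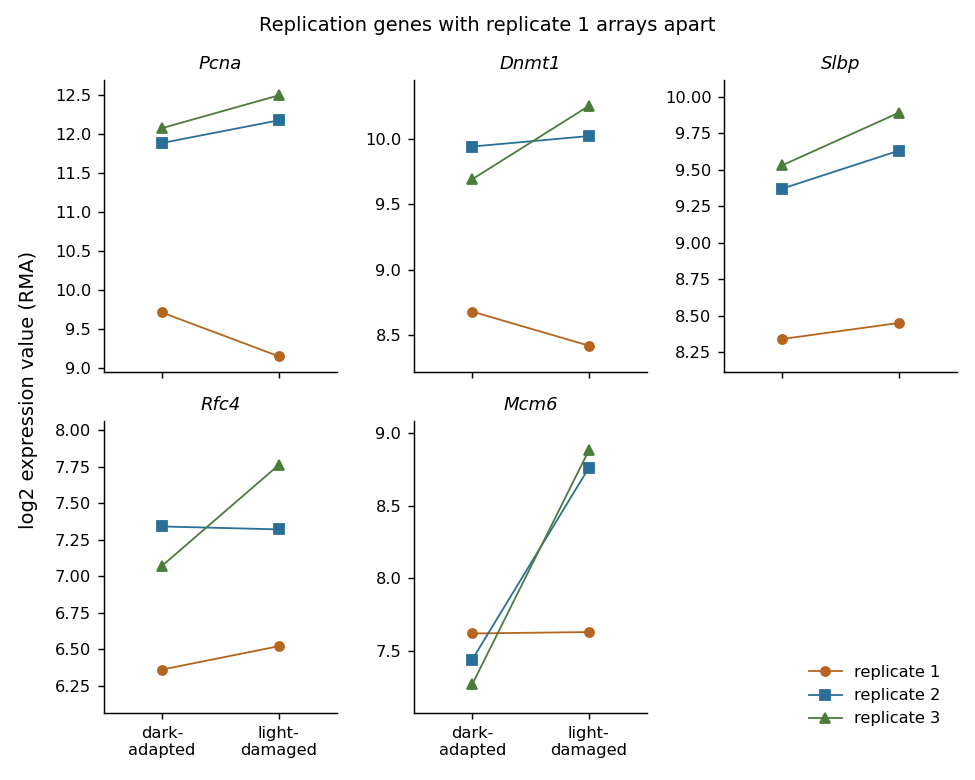
Log2 expression value (vertical axis, range set per panel) of 5 genes in dark-adapted and light-damaged arrays, with a line for each replicate number. Both replicate 1 arrays lie below the other 4 for Pcna, Dnmt1, Slbp and Rfc4, while for Mcm6 the light-damaged replicate 1 array alone stays near the dark-adapted level.

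Other genes of the pathway, in 6 lists of 152 genes with 146 measured, rose in 11 cases and fell in 1, with a median difference of 0.07. Over all genes 3.07% rose and 1.92% fell. In limma without the block 0 of the 146 passed. There 16 were higher and 3 lower at an unadjusted p under 0.05, and 3.96% of all genes were higher. Of 38 other replisome genes, among them the ORC, RPA and remaining GINS and polymerase subunits, 2 rose, with a median of 0.04. These were Gmnn, the inhibitor of CDT1, at 1.45-fold, and Dbf4, the activating subunit of the CDC7 kinase, at 1.40-fold. Of 16 further genes of nucleotide supply 1 rose, the nucleoside diphosphate kinase gene Nme2 at 1.82-fold, and of 17 genes of chromatin assembly 1 rose, the histone chaperone gene Asf1b at 1.61-fold. Among 25 genes of G1/S control 2 rose, Cks1b, which binds cyclin-dependent kinases, at 2.04-fold and the repressor E2f6 at 1.41-fold, with a list median of 0.03. Of 26 genes of the fork checkpoint and repair 3 rose, the fork protection gene Timeless at 1.91-fold, the uracil glycosylase gene Ung at 1.74-fold and the recombination gene Rad54l at 1.45-fold. Of 24 genes of G2/M and mitosis the proliferation marker Mki67 rose 2.08-fold and Birc5, of the chromosomal passenger complex, 1.66-fold, while the kinetochore gene Spc25 fell by 1.61 on the log2 scale, and the median was 0.13. Whether these lists differ from the members was not tested.

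**Figure D5:**
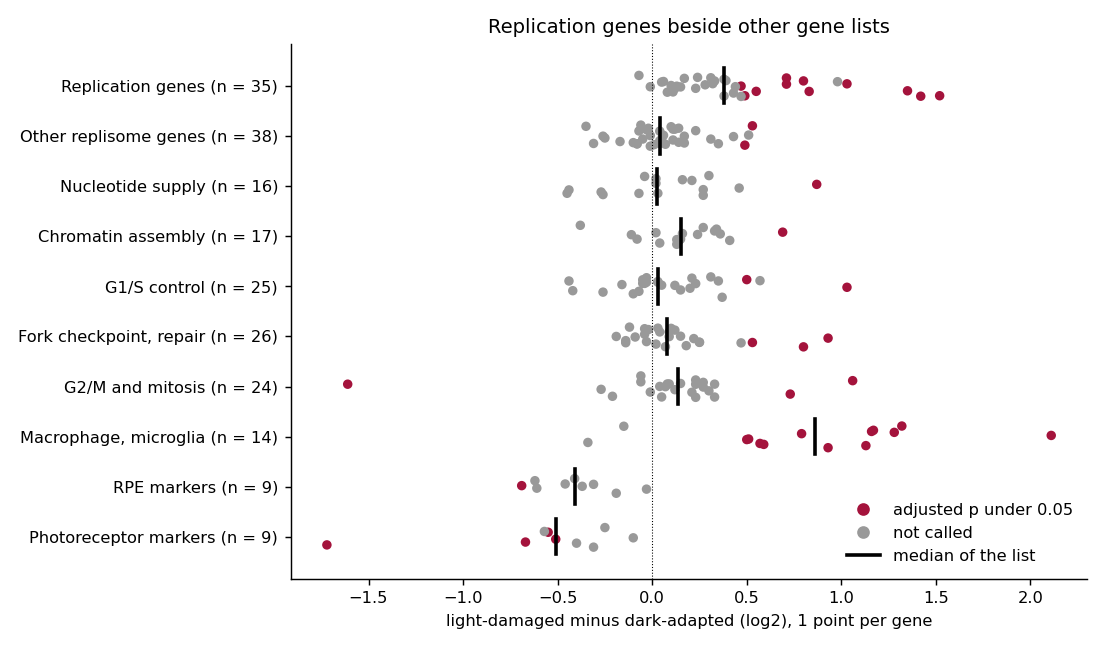
Light-damaged minus dark-adapted difference on the log2 scale (horizontal axis, 1 point per gene) for the 35 members, 6 other lists of the pathway and 3 lists of cell type markers, with called genes in red and the list's median as a bar. The members' median is 0.38, the medians of the other pathway lists lie between 0.03 and 0.15, and that of the macrophage and microglia markers is 0.86.

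Markers of some other cell types differed between the groups, where over all genes 3.07% rose and 1.92% fell. The mean of the 9 RPE markers lay between 12.25 and 13.24 per array and that of the 9 measured photoreceptor markers between 11.56 and 12.64. The median over all genes, with the same choice of probe set, was 8.27 to 8.41 per array. Of 14 macrophage and microglia markers 12 rose, with a median of 0.86, and their mean ranged from 9.06 to 9.19 over the dark-adapted arrays and from 9.91 to 10.04 over the light-damaged ones. Cd68, a lysosomal glycoprotein, and the leukocyte tetraspanin Cd53 had the smallest p-values of the list and rose 4.31-fold and 2.24-fold. Of 6 neutrophil markers S100a8 and S100a9 rose, and of 10 pericyte and fibroblast markers 3 rose, Tagln, Pdgfra and Col3a1. Of 7 Müller glia markers Gfap rose 1.67-fold, while the median was -0.29 and 2 of the 7 differences were above 0, Rlbp1 standing at -0.62. Of 8 endothelial markers Vwf rose 1.60-fold, with a median of 0.09, and 0 of 7 lymphocyte markers passed in limma, with 1 higher at an unadjusted p under 0.05. Of the RPE markers Lrat fell, and of the photoreceptor markers 4 fell, Opn1sw most (by 1.72), the medians being -0.41 and -0.51. In such bulk samples more cells of a type and more RNA per cell cannot be told apart, and the part of these cell types in the rise of the replication genes was not tested.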

How the data were processed

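The series holds 6 Affymetrix arrays of total RNA from mouse RPE, 3 dark-adapted and 3 light-damaged. The deposited table gives log2 values per probe set, made by the authors with RMA per the submitters' processing notes; its version is not given in the sources used here. Differences near the background are understated on this scale. Of 45101 probe sets, 34945 had exactly 1 symbol in the platform annotation, 932 had several, 9160 had none used here and 64 were controls. The probe set with the highest mean stood for each of 18193 genes.

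The comparison used limma (version 3.58.1, R 4.3.3) with two-sided moderated tests from lmFit and eBayes, the replicate number as a block, 2 residual degrees of freedom and Benjamini-Hochberg adjustment over all genes. The use of the replicate number as pair was set together with the gene set, and the labels do not say that equal numbers are pairs. Across genes, deviations from the group mean correlated at 0.89, 0.62 and 0.86 between arrays numbered 1, 2 and 3, above the bound of 0.1. Crossing numbers 2 and 3 gave 0.65 and 0.61, also above the bound. The correlations thus cannot tell which arrays numbered 2 and 3 belong together, and those pairs are less sure. The fit was tested on simulated data. Errors are standard errors unless named SD.

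The members, lists and tests were chosen with earlier results of these data known. All members could be named; of other lists the called genes, and of marker lists up to 2 with the smallest p, were. Alternatives covered the block, normalization, dim genes, pseudocount, probe set choice, limma settings, array weights and leaving out replicates. The promoter table was searched for exact words.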

Additional observations from a re-analysis of the deposited data

How the results depend on the processing

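The number of arrays limits the precision, with 2 residual degrees of freedom in the paired fit. Of the 35 members 11 rose in that fit, and 3.07% of all genes. Without the replicate block 0 members rose (0.0495% of all genes), and with array weights 18 did (6.04% of all genes). With genes under the median of all genes (8.37) left out, 5 of the 16 members that remained rose, since fewer members were tested. Of all 9097 genes that remained 4.01% rose. Mcm5 was among these members through its light-damaged values, since its dark-adapted mean was 7.97. Called genes of the pathway lists numbered 11, and 0, 28 and 4 under these settings. With genes under that median left out, 8 of 16 members had separate groups, Mcm5 again among them, against 19 of 35. Over all genes, with none left out, 6.61% had such a separation with light higher. The share among the genes that remained was not computed. Leaving out a pair in turn gave 4 to 13 members and 2 to 17 pathway genes. Over all genes 160 (0.879%) rose without replicate 3 and 827 (4.55%) without replicate 1. Every other setting gave 9 to 12 members, and 2.74% to 3.91% of all genes. The median difference of the members lay between 0.30 and 0.43 in all settings. No member fell under any setting. Members near 0 changed sign, with no call on either side: Tyms gave 0.00 with a pseudocount, 0.06 with the mean of its probe sets, 0.06 without pair 2 and 0.12 without pair 3. Leaving out a pair in turn gave -0.21 to 0.12 for Tyms, -0.13 to 0.35 for Pcna, -0.02 to 0.14 for Rfc2, -0.01 to 0.12 for Rfc3 and -0.09 to 0.32 for Dnmt1; all the lowest values but that of Tyms came without pair 3, and Pcna gave -0.07 without pair 2. Cdc45 gave 0.51 and 0.22 with the probe set of largest spread and with the mean of its probe sets, and Ccne1 gave 0.00 with the former and with x_at and s_at probe sets left out. The cause of these changes was not tested. Beyond the lost calls given with each gene, Mcm3 lost its call with the probe set of largest spread, and Pole2 and Rrm2 with the mean of probe sets.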
